A study of Drosophila melanogaster with 2 samples.

Results

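The X chromosome peaks of Snail-eGFP are the 714 regions on chromosome arm X in a list of 4222 regions that passed the irreproducible discovery rate (IDR) limit in the pooled data. They were chosen by chromosome alone, and were compared with the 2567 regions on 2L, 3L and 3R of the same list, which gives 3281 peaks on 4 arms. The data came from chromatin immunoprecipitation and sequencing with an anti-GFP antibody on whole embryos of the strain sna-GFP, which express a sna-eGFP fusion, aged 0 to 24 h, with 2 biological replicates of 1 group. The transgene is an insertion targeting sna. The sex of the embryos was not collected, a control experiment is named in the labels but was not analysed here, and the sequencing depth is unknown. Nothing in the labels compares a treatment or a mutant, so the comparisons are between chromosomes of the same embryos. Since whole embryos over the whole of embryogenesis were used, a strong peak in few cells and a weak peak in many cannot be told apart.

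Snail is a zinc finger repressor that marks the mesoderm at gastrulation and later acts in the nervous system, and it is known to bind E-boxes such as CAGGTG. The fly X differs from the autosomes in that males carry a single copy, which the dosage compensation complex (MSL proteins with the roX RNAs) makes more active through GA-rich entry sites. The sequence TATCGATA, the DNA replication-related element (DRE), is bound by DREF at promoters of housekeeping genes, and its inner part CGATA is the core recognised by the boundary protein BEAF-32.

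What set the X peaks apart most was the sequence under them. The core CGATA, on either strand, lay within 100 bp of the summit in 68.9% of X peaks and in 52.9% of peaks on the other arms. The windows below show the peaks of rank 1, 2, 3 and 12 by signal on the X, which differ in how many cores they hold, and, for contrast, at a peak with the Snail E-box away from promoters, at a GA-rich intron peak and at the promoter of roX2. They were read from the plus strand of an NCBI copy of Release 6 (dm6), with 100 bases on each side of the summit. Capitals mark the core, which reads TATCG where it lies on the other strand, the DRE, the Snail E-box and the GA repeat.
Nrg (chrX:8517135-8517335): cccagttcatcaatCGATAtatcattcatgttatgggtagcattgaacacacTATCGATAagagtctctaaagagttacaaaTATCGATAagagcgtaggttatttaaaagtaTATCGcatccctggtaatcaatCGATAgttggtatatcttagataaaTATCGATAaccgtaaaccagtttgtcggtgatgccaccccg
mnb (chrX:17887251-17887451): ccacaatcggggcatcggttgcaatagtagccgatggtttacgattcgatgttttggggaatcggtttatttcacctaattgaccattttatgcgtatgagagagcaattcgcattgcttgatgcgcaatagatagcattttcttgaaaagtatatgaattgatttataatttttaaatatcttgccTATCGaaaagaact
Snx27 (chrX:5737971-5738171): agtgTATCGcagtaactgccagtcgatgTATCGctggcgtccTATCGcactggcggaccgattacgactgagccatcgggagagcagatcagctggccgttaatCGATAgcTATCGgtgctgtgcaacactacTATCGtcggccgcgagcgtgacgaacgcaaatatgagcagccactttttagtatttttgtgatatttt
CkIalpha (chrX:12653663-12653863): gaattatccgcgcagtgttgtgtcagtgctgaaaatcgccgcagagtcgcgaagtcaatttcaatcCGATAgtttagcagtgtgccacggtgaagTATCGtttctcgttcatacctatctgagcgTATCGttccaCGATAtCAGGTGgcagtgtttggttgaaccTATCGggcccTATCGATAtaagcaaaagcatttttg
CG15468 (chrX:4956043-4956243): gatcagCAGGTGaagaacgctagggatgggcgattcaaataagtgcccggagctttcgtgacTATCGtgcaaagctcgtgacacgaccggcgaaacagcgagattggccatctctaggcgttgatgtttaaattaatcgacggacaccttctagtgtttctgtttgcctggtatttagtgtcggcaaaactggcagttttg
Tlk (chrX:3740879-3741079): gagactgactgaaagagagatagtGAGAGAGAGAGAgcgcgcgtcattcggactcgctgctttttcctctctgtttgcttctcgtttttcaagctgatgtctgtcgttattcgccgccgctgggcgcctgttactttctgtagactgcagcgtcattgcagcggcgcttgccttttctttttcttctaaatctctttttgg
roX2 (chrX:11578940-11579140): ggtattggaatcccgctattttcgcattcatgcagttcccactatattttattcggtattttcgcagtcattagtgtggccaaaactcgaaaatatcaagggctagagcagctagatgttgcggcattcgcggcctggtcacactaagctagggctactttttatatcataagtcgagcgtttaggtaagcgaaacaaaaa

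The window at Nrg, which encodes the L1-type adhesion protein Neuroglian, held 9 matches of the core, 6 of them inside its 3 DREs, since a DRE reads the same on both strands and counts as 2 matches. The window at mnb, a kinase gene, held 1 core, and the peak of rank 7, at CG14441, held none. At Snx27, a sorting nexin, 6 cores stood without a DRE. CkIalpha, a casein kinase of the Wnt and Hedgehog pathways, held 7 cores, 2 of them in a DRE, and 1 copy of CAGGTG. The peak nearest to CG15468 held 1 copy of CAGGTG and 1 core. The Tlk window held 3 overlapping matches of GAGAGAGA and no core. Neither a core nor a GA repeat lay in the window at roX2.

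The core difference was tested over peaks with errors clustered in blocks of 100 kb. It was 16.0 percentage points (95% interval 11.8 to 20.2), with a Benjamini-Hochberg adjusted p = 4.92e-13 over 11 sequences and n = 3281 peaks. Each of the other arms lay close to the others, with 52.5% on 2L, 51.9% on 3L and 54.1% on 3R. In the replicates' own lists the core lay at 374 of 474 X peaks (78.9%) against 63.8% in replicate 1 and at 279 of 365 X peaks (76.4%) against 63.4% in replicate 2. The X was above the other arms in both replicates. The longer DRE showed the same direction, at 179 X peaks (25.1%) against 16.6%, a difference of 8.51 points (4.63 to 12.4, adjusted p = 9.57e-05, n = 3281 peaks). The DRE difference missed the threshold in the list of replicate 2, where it was 6.46 points (adjusted p = 0.0794, n = 1740 peaks), and among peaks away from promoters, where it was 4.14 points (adjusted p = 0.911, n = 500 peaks).

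Shares along the whole chromosome and at its promoters were read beside those at peaks. Windows of the same length tiled along the X held the core in 22.1% of cases, against 20.9% on 2L, 3L and 3R, and the DRE in 0.704% against 0.494%. Of 2196 coding genes on the X, 1013 (46.1%) had the core within 100 bp of their most upstream annotated start, against 37.9% of 8817 coding genes on the other arms. Sequence was read only at that start of each gene. A peak counted within 500 bp of any start of the gene, so core and peak may lie at different starts. The DRE was there at 11.9% of X coding starts and 7.03% elsewhere. X genes with a peak at a start site had the core in 77.4% of cases and X genes without a peak in 32.3%, where the other arms gave 64.2% and 28.5%. Seen from the sequence, 51.3% of X genes with the core had a peak and 12.8% of those without it did, against 44.9% and 15.3% on the other arms. Of X genes with a DRE, 72.5% (66.8 to 77.6) had a peak, against 81.3% (78.0 to 84.2). The part of the general content of X promoters in the difference between peaks was not tested. Among promoter peaks alone the core difference was 15.8 points, and among peaks away from promoters it was 6.44 points with an SE of 5.53 (adjusted p = 0.911, n = 500 peaks).

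**Figure D1:**
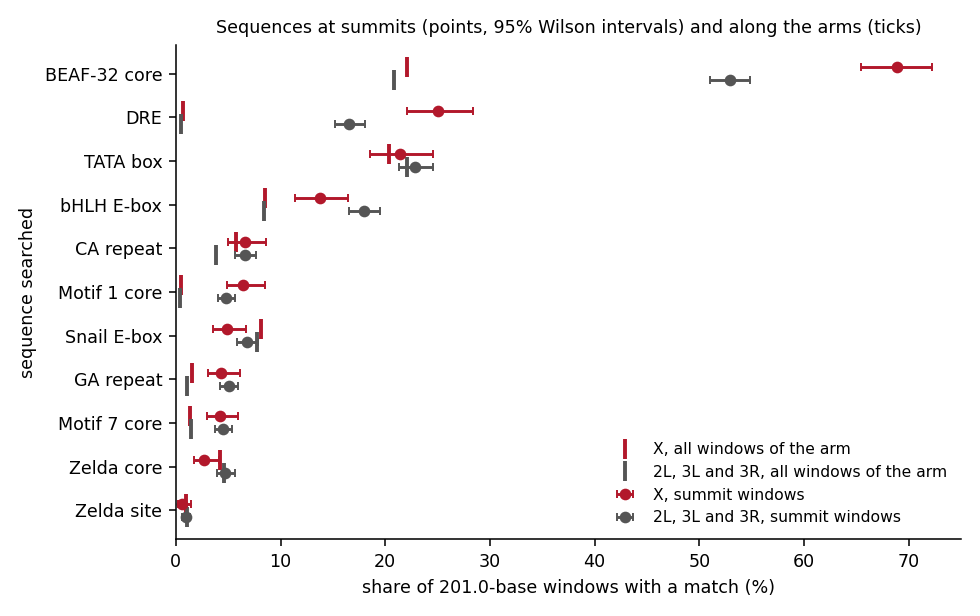
Share of windows of the same length that hold each sequence class (x axis, percent), at summits of the pooled list (points, with 95% Wilson intervals) and in windows tiled along the arms (ticks), for the X (red) and for 2L, 3L and 3R together (grey). The BEAF-32 core lies at 68.9% of X summits against 52.9%, while the ticks stand at 22.1% and 20.9%.

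X peaks also held more copies, counted as matches on both strands, so that each DRE adds 2. Windows with 3 or more cores made up 243 of 714 X peaks (34.0%, 30.7 to 37.6) and 20.6% elsewhere, while windows with none made up 222 (31.1%, 27.8 to 34.6) and 47.1%. The classes with 1 and 2 cores held 132 and 117 X peaks, shares whose intervals overlap those of the other arms. The mean was 1.86 cores a window on the X and 1.22 elsewhere, a difference of 0.64 (0.49 to 0.79) in the pooled list, 0.68 in replicate 1 and 0.61 in replicate 2. With each DRE counted as 1 match the means were 1.56 and 1.04, a difference of 0.52 (0.40 to 0.65), and 3 or more matches lay at 25.6% of X peaks against 14.2%. The nearest core lay a median of 21 bp from the summit on the X and 26 bp elsewhere. With more cores in a window the nearest tends to lie closer, so this distance is not separate from the number of copies.

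Peak strength is the authors' signal value, and the labels do not state its scale. The sex of the embryos was not collected, so the number of X copies in the pool is unknown. In signal differences between the X and the other arms, copy number and binding cannot be told apart. On the X its median was 80.6 with no core and 105, 122 and 156 with 1, 2 and 3 or more. On the other arms the medians were 89.2, 103, 143 and 209. X peaks with a DRE had a median signal of 149 against 194 elsewhere, and their mean log2 signal was lower by 0.30 (interval of the difference -0.45 to -0.15, adjusted p = 0.000146 over 5 quantities, n = 604 peaks). The difference was -0.16 in replicate 1 (adjusted p = 0.0411, n = 534 peaks) and -0.04 (-0.18 to 0.11) in replicate 2 (adjusted p = 0.625, n = 426 peaks). Whether the replicates differed was not tested. X peaks with a core were lower by 0.14 on the log2 scale (interval of the difference -0.25 to -0.04, adjusted p = 0.00782, n = 1850 peaks), with -0.09 in replicate 1 and -0.06 in replicate 2, neither past the threshold. X peaks without any core were lower by 0.27 on the log2 scale in the pooled list (adjusted p = 0.00782, n = 1431 peaks), with differences of -0.01 in replicate 1 and -0.26 in replicate 2, neither past the threshold. These 5 quantities (cores a window, the log2 signal of peaks with a DRE, with a core and without a core, and the side of the start site) were chosen after the values above were seen.

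**Figure D2:**
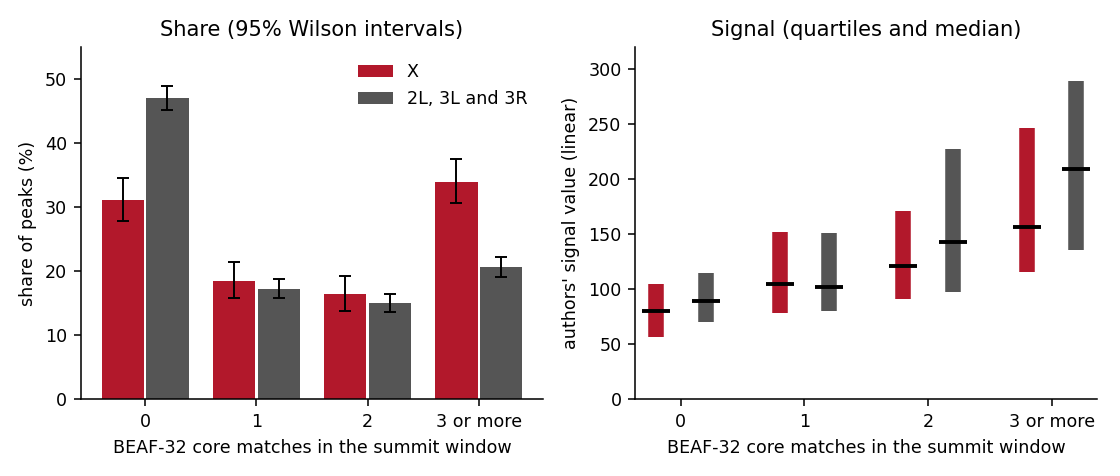
Left, share of peaks (percent, 95% Wilson intervals) by number of BEAF-32 core matches in the summit window; right, the authors' signal value (linear; bars span the quartiles, black lines are medians), X in red and 2L, 3L and 3R in grey. With 3 or more matches the X holds 34.0% of its peaks against 20.6%, with a median signal of 156 against 209.

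Over all peaks no difference in strength was past the threshold, although both classes, with and without a core, were weaker on the X in the pooled list. The median signal of X peaks was 113 (quartiles 79.7 and 177), against 114 on 2L, 106 on 3L and 109 on 3R. The difference in mean log2 signal was -0.03 (-0.13 to 0.06, p = 0.499, n = 3281 peaks). It was 0.05 in the replicate 1 list and 0.01 when overlapping peaks were merged, so its sign was not stable. The tenth of peaks with the highest signal held 66 X peaks (9.24%, 7.33 to 11.6) and 10.2% of the others. Of the 100 strongest peaks, 13 lay on the X, 24 on 2L, 20 on 3L and 43 on 3R. The X held 714 of all 3281 peaks, and its share of the 100 strongest was not tested. Of X peaks, 228 (31.9%) overlapped another peak, and 59 of the 60 with a signal under 30 were such neighbours, so members of the list share sequence. On the other arms 28.5% overlapped another peak, as did 189 of the 195 with a signal under 30.

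**Figure D3:**
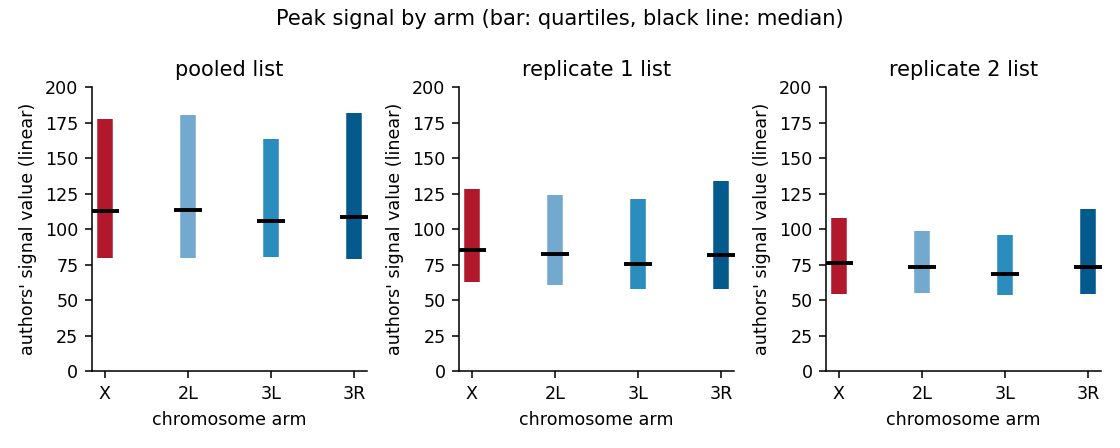
The authors' signal value (linear axis; bars span the quartiles, black lines are medians) by chromosome arm in the pooled list and in each replicate's list. In the pooled list the X median of 113 lies between those of 2L (114) and 3R (109), and the quartile ranges overlap in all 3 lists.

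The X carried 30.3 peaks per Mb (28.1 to 32.6, exact Poisson) against 30.7 on the other arms. The log2 ratio of the densities was -0.02 in a quasi-Poisson fit (-0.23 to 0.20, p = 0.882, n = 3281 peaks). The units of this fit were bins of 100 kb, 236 on the X and 236, 282 and 321 on 2L, 3L and 3R. Of the 106694 candidate regions of the pooled data, 3.96% passed the IDR limit. On the X 714 of 19963 candidates passed (3.58%), and on the other arms 3.92%. The median signal of X candidates was 18.0 against 19.9. Of the 714 X peaks, 345 (48.3%) shared at least 1 bp with peaks of both single-replicate lists, 152 only in replicate 1, 37 only in replicate 2 and 180 (25.2%) in neither. Those in both had a median pooled signal of 179 and those in neither 79.3. On the other arms 44.7% were in both and 24.97% in neither, with median pooled signals of 185 and 79.1. Differences between the X and the other arms in these shares were not tested.

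Promoters held most X peaks. A summit within 500 bp of an annotated start site was seen for 629 X peaks (88.1%, 85.5 to 90.3), against 85.2% on 2L, 79.9% on 3L and 86.1% on 3R. The difference of 4.26 points (0.99 to 7.53) had an adjusted p = 0.0374 over 7 classes and n = 3281 peaks, but it was 1.40 points in the list of replicate 1 and 2.86 in that of replicate 2, neither past the threshold, and X against 3R alone gave 1.96. Intergenic X peaks numbered 17 (2.38%) against 4.91%, lower by 2.53 points (adjusted p = 0.0106, n = 3281 peaks), but by 0.66 in replicate 1 and 0.21 in replicate 2, neither past the threshold. Among peaks above the median signal that difference turned to 0.50 points higher on the X. Introns held 52 X peaks (7.28% against 8.88%), 3' UTRs 8, coding exons 6 and noncoding exons 2. No X peak lay in a 5' UTR outside the promoter windows, which allows a share of up to 0.42% by the limit of 3 counts and 0.535% by the Wilson interval, and the other arms gave 0.429%.

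**Figure D4:**
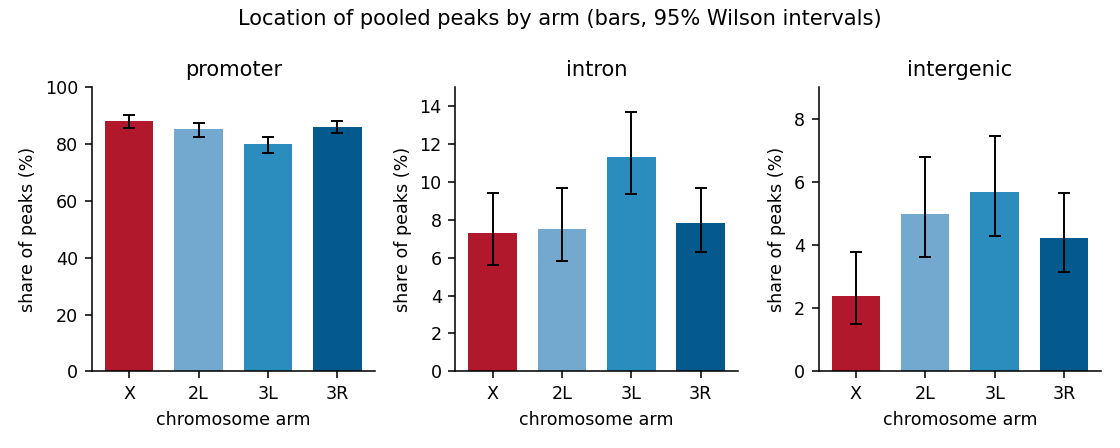
Share of pooled peaks (percent, bars from 0, 95% Wilson intervals) at promoters, in introns and between genes, by chromosome arm; the 3 panels have different scales. The X has 88.1% at promoters, 3R has 86.1% and 3L has 79.9%.

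At promoters the X summits lay a median of 38 bp upstream of the nearest coding start, against 26 bp elsewhere, and 425 of 629 (67.6%) were upstream, against 62.1%. That difference of 5.49 points (1.52 to 9.45, adjusted p = 0.00782, n = 2781 peaks) was 4.99 points in replicate 1 and 1.66 in replicate 2, neither past the threshold. Coding starts of several genes lay within 500 bp at 206 X promoter summits (32.8% against 34.5%). Starts of noncoding RNAs or transposons alone accounted for 10 X promoter peaks (1.59% against 5.30%), among them lncRNA:CR43838 (X from 20760634 to 20760929, signal 337) and roX2.

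Over the 4 arms, 3015 of 11013 coding genes (27.4%) carried a promoter summit, as defined above. The X had 672 of 2196 (30.6%) and the other arms 26.6%. The difference of 4.03 points (0.86 to 7.19, p = 0.0127, n = 11013 genes) was 1.94 in replicate 1 and 1.53 in replicate 2, neither past the threshold. Coding genes were sparser on the X, at 93.3 per Mb against 105. Within 25 kb of a summit the X had 8.27 coding gene starts against 9.16, lower by 0.89 (interval of the difference -1.56 to -0.22, p = 0.00949, n = 3281 peaks). Against 3L alone that difference was -0.36 and not past the threshold.

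Along the X, 59 of its 236 bins of 100 kb (25%) had no summit, against 27.5% on 2L, 31.2% on 3L and 30.5% on 3R. The fullest bin (X from 7900001 to 8000000) had 13 summits beside 18 coding gene starts, including Ykt6, Ubr3 and RpS6. The next (X from 15800001 to 15900000) had 12 beside 20 starts, including shi, the fly dynamin, and Chc, the clathrin heavy chain. The longest stretch without a summit ran from 21605698 to 22529925 (924 kb) and held 39 coding gene starts, so it was not empty of genes. The longest such stretches on 2L, 3L and 3R were 1379, 3574 and 4221 kb. Within the 125 kb from start to end of CG1677 lay 9 summits, the strongest being the brk promoter peak, and within Tlk, a chromatin kinase, lay 6. Their signals ran from 4.86 to 110 in CG1677 and from 4.92 to 156 in Tlk. Overlapping peaks were counted separately, here and in the bins.

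Nrg (X from 8517047 to 8517424) had a signal of 678 in the pooled list, 409 in replicate 1 and 273 in replicate 2. It had the highest signal on the X and rank 17 in the whole list. mnb, the kinase minibrain, had 582 in the pooled list, 327 in replicate 1 and 240 in replicate 2. Snx27 had 581, 323 and 270 in the same order. These were followed by Coq7 of ubiquinone synthesis (543) and Flo2, a flotillin (513). All 15 strongest X peaks were present in both replicates, with 13 at promoters, 12 with the core and 1 with CAGGTG. The exceptions to the promoter rule were an intron of org-1, a T-box gene of visceral muscle (X from 8452180 to 8452523, signal 429), and the 3' UTR of CG16989 (397). Other strong intron peaks lay in Pgd of the pentose phosphate pathway (179), Stt3A of protein glycosylation (165) and the phosphatase gene Pp2C1 (149). Intron peaks as a set were weak on the X, with a median of 81.2, as on the other arms, with 90.1. Of the 52 on the X, 30 were in neither replicate's list, beside 180 of all 714 X peaks (25.2%).

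The Snail E-box CAGGTG was rarer at X peaks than the core. It lay at 35 X peaks (4.90%, 3.55 to 6.74) against 6.78%, a difference of -1.88 points that missed the threshold (adjusted p = 0.0708, n = 3281 peaks). In tiled windows it was found in 8.08% on the X and 7.74% elsewhere, above its share at summits. The strongest X peaks with it were at CkIalpha (442), near CG15468 (347), at lncRNA:CR43838 (337), at tko, a mitochondrial ribosomal protein gene (233), and at Alms1a next to pon (218). Each of these had the core as well, as did 22 of the 35 (62.9%), beside 68.9% of all X peaks. The Zelda core, CAGGTA, lay at 19 X peaks (2.66% against 4.71%, adjusted p = 0.0108, n = 3281 peaks), and tiled windows gave 4.17% and 4.58%. Its difference of -2.05 points was -2.96 in replicate 1, past the threshold, and -1.31 in replicate 2, which was not, and among promoter peaks alone it was -1.58 and missed it (adjusted p = 0.0878, n = 2781 peaks). The bHLH E-box, CAGCTG, lay at 98 (13.7% against 18.0%, adjusted p = 0.0112, n = 3281 peaks), and tiled windows gave 8.48% and 8.37%. Its difference of -4.27 points was -3.08 and -2.83 in the lists of replicates 1 and 2, and neither was past the threshold. Within 100 bp of the most upstream starts of coding genes, CAGCTG lay at 12.4% on the X against 13.9%. CAGGTG lay at 7.01% of these starts on the X against 6.39%, and CAGGTA at 4.33% against 4.20%. Among promoter peaks alone the Snail E-box difference was -2.38 points and did pass the threshold (adjusted p = 0.0284, n = 2781 peaks). Over all peaks of the single-replicate lists it was -1.02 points in replicate 1 and -1.67 in replicate 2, neither past the threshold.

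GA repeats, the kind of sequence known from entry sites of dosage compensation, were no more frequent at X peaks. GAGAGAGA lay at 31 X peaks (4.34%) against 5.03%, a difference of -0.68 points (-2.67 to 1.30, adjusted p = 0.688, n = 3281 peaks). Tiled windows held it more often on the X (1.53% against 1.05%). The most upstream starts of coding genes, read within 100 bp, did not (1.503% on the X against 1.724%). The CA repeat CACACACA lay at 6.58% of peaks in both groups, with tiled shares of 5.76% and 3.79%. Of the 31 GA peaks, 21 were at promoters (67.7%) and 7 had the core (22.6%), beside 88.1% and 68.9% of all X peaks. Only 2 of them were in both replicates' lists, beside 345 of the 714 X peaks (48.3%). The strongest were in an intron of Tlk (142), at ogre, an innexin (123), near ben, a ubiquitin-conjugating enzyme gene (111), and at brk (110).

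Genes of 7 groups on the X, 63 in all, were read for a summit within 500 bp of a start site. It was present for 29 (46.0%) beside 30.6% of all X coding genes. Of these 29 genes, 14 had their strongest promoter peak in both replicates, 9 in neither, 18 with the core and none with CAGGTG. Among all 629 X promoter peaks, 328 were in both, 138 in neither, 464 (73.8%) had the core and 28 had CAGGTG. Among 9 genes of dosage compensation and sex determination, 4 had one. The splicing factor gene snf had a signal of 204 (99.98 in replicate 1, 86.3 in replicate 2), and mof, the acetyltransferase of the MSL complex, had 162 (110 and 58.9). roX2 (X from 11578782 to 11579297, 97.4) and Sxl, the master switch of female fate (74.7), were in neither replicate's list, and roX1 had no summit within 5 kb.

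Of 10 genes of the Snail and gastrulation group, 4 had a promoter summit. brk and sog, repressors of Dpp signalling that Snail keeps off in the mesoderm, each had their peak in the replicate 1 list (76.8 and 63.5) but not in that of replicate 2. fog, the ligand of apical constriction, had 92.1 and was in neither. mys, the beta integrin, shared a peak with fs(1)h, a bromodomain gene (272), that was in both. vnd and tsg had no summit within 5 kb. In the polarity and adhesion group 5 of 7 had one, from Nrg (678), dlg1 (231) and baz (130) to kirre (73.5) and sdt (64.5), the last pair in neither replicate.

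In the neural group elav, N and peb had one (75.1, 58.6 and 114), and the proneural genes ac, l(1)sc and ase had no summit within 5 kb. Of 7 segmentation and patterning genes only btd had one (97.2), and gt and oc had none within 5 kb. The growth and chromatin group had 4 of 9, namely hop, the fly JAK kinase (259), fs(1)h, ph-p (125) and trr (148), and Myc and CycD had none. Of 14 ribosomal protein genes 8 had one, from RpS10b (276) and RpL36 (242) down to RpS28b (64.5).

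**Figure D5:**
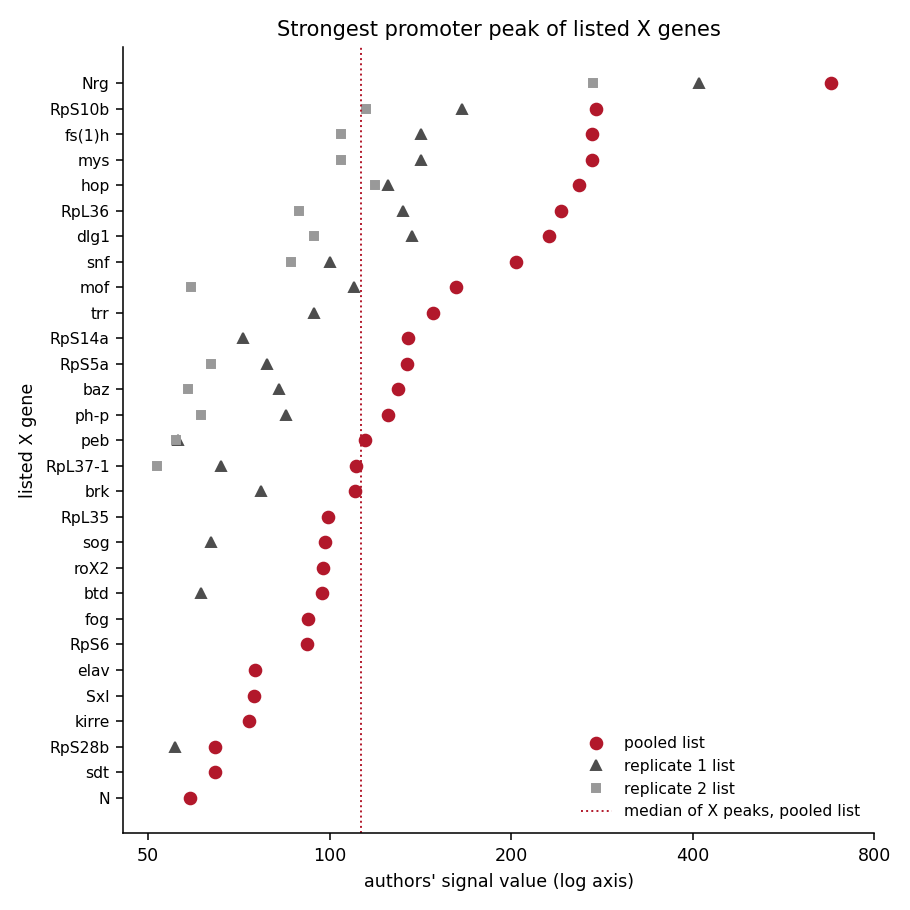
The authors' signal value (log axis) of the strongest promoter peak of each of 29 listed X genes, in the pooled list (red) and in the replicates' own lists where it is present (dark triangles and light squares); the dotted line is the X median of 113. The signals run from 58.6 at N to 678 at Nrg, and fs(1)h and mys share a peak.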

How the data were processed

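Peak lists of 2 biological replicates and of the pooled data were deposited as IDR-ranked and IDR-thresholded lists on dm6, per the labels. For the aligner, the peak caller and the scale of the signal, the sources used here give nothing. The deposited signal value per peak was used on a linear or log2 scale, and the summit is the start plus the authors' offset. Depth is unknown. Start sites came from Ensembl release 115 and bases from an NCBI copy of Release 6. A promoter lay within 500 bp of a start site, and each summit's 100 bp on either side was scanned for sequences, forward and reverse. X was compared with 2L, 3L and 3R by least squares with errors clustered in blocks of 100 kb (densities by quasi-Poisson over 100 kb bins), with Benjamini-Hochberg adjustment within each family and a threshold of 0.05. Scripts used Python 3.11.15, numpy 2.4.6, pandas 2.3.3, statsmodels 0.14.6 and scipy 1.17.1, and were tested on simulated data. These p-values treat blocks of the genome as units and say nothing of the spread between embryos. Intervals of shares are Wilson intervals at 95% and cover counting error only. Shares with under 5 peaks inside or outside a class in either group got no test; this was adopted after the 5' UTR class, with no X peak, had been called with an invalid error. Such classes still counted in the adjustment. Named peaks were the 15 strongest on the X and the 5 strongest of further classes. The members, gene lists and comparisons were chosen with earlier results of these data known. Alternatives covered other lists, single replicates, stronger peaks, merged peaks, single arms, other promoter and window sizes and larger blocks; 2 were added after seeing the data, leaving out transposon starts and genes with a close neighbour, as were 5 contrasts (and a count of each DRE as 1 core) on core copies, signal within sequence classes and the side of the start site. The peaks on the remaining arms were not analysed here.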

Additional observations from a re-analysis of the deposited data

How the results depend on the processing

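Across 25 results and 20 alternatives, 304 values were recomputed. Of these, 28 changed sign and 219 met the criterion for no change, which is the same direction and side of the threshold for a test, the same direction for a value with no test, and a count within 1.5 times the first for counts of calls. The core CGATA stayed past the threshold in 12 of 13 alternatives, with differences of 13.0 to 17.4 points, and missed it among peaks away from promoters (6.44). No paired analysis was possible because there is 1 group.

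The promoter excess of the X, 4.26 points, missed the threshold in most alternatives: the replicate pair's list (4.08), single replicates (1.40 to 2.86), peaks above the median signal (1.15), merged peaks (3.65), X against 2L (2.90) or 3R (1.96), promoters within 1000 bp (2.57), 1000 kb blocks (4.26, adjusted p = 0.0655, n = 3281 peaks) and transposon starts left out (4.11). The number of location classes past the threshold went from 2 to 0 in each of these except the 1000 kb blocks, where it was 1. For coding genes with a promoter summit the excess missed it in single replicates (1.53 to 1.94), above the median signal (2.53) and against 3R (2.57), and gene density missed it against 3L (-0.36). The number of sequences past the threshold, 4, was 1 in replicate 2, 2 against 2L and against 3L, 0 away from promoters, and 3 to 5 in the other alternatives; the cause was not tested.

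Sign changes were otherwise in differences not past the threshold, except the intergenic share, which was higher on the X by 0.50 points above the median signal. Log2 density turned to 0.0652 above the median signal and 0.0404 against 3L, and log2 signal to 0.00759 with merged peaks and 0.0510 in replicate 1. In replicate 2 log2 signal kept its sign (-0.00514). The coding exon share went to 0.0428 points in replicate 1 and 0.0328 against 2L. The noncoding exon share went to 0.297 in replicate 1, 0.0109 against 2L and 0.0232 with 1000 bp promoters. In replicate 2 the coding exon share (-0.308) and the noncoding exon share (-0.145) kept their sign. Motif 7 (CAGCNCTA) turned to 0.284 points in the pair's list, 1.09 in replicate 1, 0.164 against 2L and 0.122 in windows of 50 bp each side. In replicate 2 it kept its sign (-1.47). CA repeats turned to 0.360 in the pair's list, 0.107 above the median signal, 0.0980 with merged peaks, 1.03 against 3L, 4.85 away from promoters and 2.33 in windows of 200 bp each side. The TATA box turned to 0.163 against 2L, 1.05 away from promoters and 1.69 in windows of 200 bp each side, GA repeats to 0.573 against 2L and the Snail E-box to 1.73 away from promoters. GC content turned to 0.0984 to 0.298 points in single replicates and 0.133 above the median signal.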
